A study of Mus musculus with 10 samples.

Results

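Nedd9, the parvins and their partners are proteins of the adhesion sites where integrins are joined to the actin cytoskeleton. The 10 genes described here are Nedd9, Bcar1, Ptk2, Ptk2b, Parva, Parvb, Parvg, Ilk, Pxn and Lims1, taken by name from the 25579 genes of the RNA-seq files. Nedd9 and Parvb were chosen by their lower level in Pax5R31Q/- and Pax5-/- cells than in Pax5+/+ cells, and every comparison below shares libraries with those, so all their differences are given as a description, with no p. The other 8 genes were added as their relatives or binding partners, with earlier results of these data known. All 10 had a value in the files, and 8 reached 1 TPM in a library and entered the tests, among 13436 genes. Bcar1 and Parva did not, and only an alternative fit that kept genes of low TPM included them. TPM is the number of reads of a gene divided by its length and scaled to a total of 1000000 per library, so levels of different genes can be set side by side.

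The RNA came from bone marrow cells of C57BL/6 mice, as 8 libraries, 2 for each of 4 genotypes. Pax5+/+, Pax5+/- and Pax5R31Q/- cells were labelled pro-B cells, and Pax5R31Q/- cells carried the R31Q allele opposite a null allele. Pax5-/- cells were labelled progenitor cells and carried Pax5(fl/fl) with Vav-Cre, a Cre recombinase active across blood cells rather than in B cells alone. Pax5 ChIP-seq peaks came from 2 libraries of pro-B cells kept in vitro, with 1 library labelled Rag2(-/-), used as wild type, and 1 labelled Pax5(R31Q/-) by its genotype entry, whose description reads Rag2(R31Q/-). The labels give no ages, and nothing in them says that the 2 libraries of a genotype came from separate mice, so each p-value measures the spread between these libraries.

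When integrins bind the matrix, adaptor proteins gather on their cytoplasmic tails and build a focal adhesion. Cas-family adaptors such as Nedd9 and Bcar1 (p130Cas) are phosphorylated by focal adhesion kinase (Ptk2), its relative Pyk2 (Ptk2b) and Src-family kinases, and then recruit Crk proteins. Integrin-linked kinase (Ilk), PINCH1 (Lims1) and a parvin form a complex that ties integrins to actin, and paxillin (Pxn) is a scaffold that binds the kinases and the parvins. In lymphocytes these proteins serve adhesion and migration, and Pax5 is the transcription factor that holds B cell precursors to the B lineage.

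Reads recovered from the TPM steps numbered 21625880 to 34488572 per library, fewest in Pax5-/- library 1. The Pax5 TPM, counted over the whole gene, lay at 418 and 444 in Pax5+/+, 272 and 287 in Pax5+/-, 306 and 293 in Pax5R31Q/-, and 1240 and 1410 in Pax5-/- cells. A whole-gene value checks neither the point mutation nor the deletion. Of 12 pro-B markers, 8 were lower and 1 higher in Pax5-/- than in Pax5+/+ cells, and their summed TPM ranged from 7918 to 8599 there against 14820 to 18800 in the pro-B libraries. The 7 myeloid markers summed to 2065 TPM in Pax5-/- library 1 and to 316 in library 2, against 615 and 397 in Pax5+/+, 661 and 1525 in Pax5+/-, and 993 and 945 in Pax5R31Q/- libraries, so that both Pax5R31Q/- libraries lay above both of Pax5+/+. T and NK markers (7 genes) summed to 81.2 and 105 TPM in Pax5-/- cells against 35.0 to 41.8 elsewhere. Of these, Nkg7 (mean 40.4 against 6.40 TPM), Klrd1 (10.45 against 2.43) and Thy1 (36.97 against 22.4) were higher in Pax5-/- than in Pax5+/+ cells (limma adjusted p = 0.00146, 0.0367 and 0.00651), Cd4 was not called (4.49 against 3.87), and Cd3e, Cd3g and Cd3d stayed under 1 TPM in every library. The 3 erythroid markers summed to 4.19 to 11.4 TPM in Pax5-/- cells against 13.8 to 27.4 elsewhere, and 5 megakaryocyte and platelet markers to 4.65 to 20.7 over all libraries. The 4 stromal and endothelial markers summed to 9.81 to 11.3 TPM in Pax5+/+, 2.08 to 2.43 in Pax5+/-, 3.89 to 4.71 in Pax5R31Q/- and 12.9 to 13.9 in Pax5-/- cells. Among these 4, Cdh5, an endothelial cadherin, was higher in Pax5-/- than in Pax5+/+ cells (mean 9.97 against 1.37 TPM, limma adjusted p = 0.00104), while the mean of Col1a1 was 3.06 against 8.21 TPM (adjusted p = 0.0763). The part of these sums in the differences between genotypes was not tested. In bulk samples fewer cells of a type and less RNA per cell cannot be told apart.

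Nedd9 lies at chr13:41309916-41487362 on the minus strand (GRCm38) with RefSeq starts at 41487360 and 41359001. Parvb lies at chr15:84232043-84315689 on the plus strand, 8485 bp upstream of Parvg at chr15:84324175-84342978. The following stretches of Pax5 peaks at Nedd9 and Parvb are shown because these are the genes with the largest differences, and they set peaks found in both libraries beside peaks found in only one. Each is written 5′ to 3′ on the strand of its gene from the reference genome (NCBI RefSeq, GRCm38.p6). Capitals mark matches on either strand to GCGTGAC or GCANCCA, parts of sites that the Pax5 paired domain can bind. The stretches before the start sites end at the base upstream of the annotated transcripts, and peaks wider than 300 bp are shown by their middle 300 bp.
Nedd9, upstream start, R31Q list only, chr13:41487363-41487488: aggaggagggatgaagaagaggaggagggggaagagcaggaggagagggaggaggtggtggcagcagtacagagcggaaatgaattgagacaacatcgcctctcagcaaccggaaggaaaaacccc
Nedd9, downstream start, both lists, chr13:41359002-41359209: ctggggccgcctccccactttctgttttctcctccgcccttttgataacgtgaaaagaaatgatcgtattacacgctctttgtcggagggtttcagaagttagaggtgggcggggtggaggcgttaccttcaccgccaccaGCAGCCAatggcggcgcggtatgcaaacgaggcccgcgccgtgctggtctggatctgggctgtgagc
Nedd9, intron, both lists, chr13:41402687-41402986: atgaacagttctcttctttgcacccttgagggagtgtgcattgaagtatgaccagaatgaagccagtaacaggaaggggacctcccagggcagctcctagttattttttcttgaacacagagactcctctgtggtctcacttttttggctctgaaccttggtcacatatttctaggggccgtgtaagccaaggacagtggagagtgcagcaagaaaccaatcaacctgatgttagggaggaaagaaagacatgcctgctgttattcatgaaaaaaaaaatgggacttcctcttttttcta
Nedd9, intron, wild type list only, chr13:41427106-41427405: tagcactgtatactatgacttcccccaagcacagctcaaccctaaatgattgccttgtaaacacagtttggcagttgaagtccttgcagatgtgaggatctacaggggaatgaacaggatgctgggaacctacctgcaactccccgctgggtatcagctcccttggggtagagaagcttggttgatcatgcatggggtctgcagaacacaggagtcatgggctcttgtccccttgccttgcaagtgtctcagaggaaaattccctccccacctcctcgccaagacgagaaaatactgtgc
Nedd9, intron, wild type list only, chr13:41410877-41411121: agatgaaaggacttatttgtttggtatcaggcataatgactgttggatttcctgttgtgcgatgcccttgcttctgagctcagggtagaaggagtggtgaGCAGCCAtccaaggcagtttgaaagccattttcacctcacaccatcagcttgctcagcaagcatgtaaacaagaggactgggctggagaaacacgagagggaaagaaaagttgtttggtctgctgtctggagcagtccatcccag
Parvb, intron, both lists, chr15:84298851-84299150: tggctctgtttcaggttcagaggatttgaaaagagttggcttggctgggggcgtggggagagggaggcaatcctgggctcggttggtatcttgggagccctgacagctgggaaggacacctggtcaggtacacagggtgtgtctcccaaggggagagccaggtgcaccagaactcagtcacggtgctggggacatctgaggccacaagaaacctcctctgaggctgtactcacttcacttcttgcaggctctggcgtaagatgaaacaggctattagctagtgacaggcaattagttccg
Parvb, intron, wild type list only, chr15:84303054-84303353: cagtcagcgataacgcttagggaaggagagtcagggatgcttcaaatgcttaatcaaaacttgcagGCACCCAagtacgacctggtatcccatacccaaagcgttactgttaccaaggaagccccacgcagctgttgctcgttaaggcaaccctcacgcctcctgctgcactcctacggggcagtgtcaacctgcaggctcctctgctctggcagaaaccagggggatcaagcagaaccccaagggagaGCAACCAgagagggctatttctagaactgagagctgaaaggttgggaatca
A GCANCCA match was present in 3 of these 7 stretches and GCGTGAC in 0. The match before the downstream Nedd9 start lay in a peak of both lists, and the other 2 stretches with a match, 1 at Nedd9 and 1 at Parvb, came from peaks of the wild type list alone. The R31Q peak at the upstream Nedd9 start also holds 1 GCANCCA match, outside the part printed. In the middle 300 bp of wild type peaks at least that wide, GCANCCA was present in 24.2% of those met by an R31Q peak and 7.3% of the rest, and GCGTGAC in 7.4% and 1.4%. Without the peaks that hold a repeated 24-letter word, the shares of the rest were 17.4% and 3.5%. The matching stretches at Nedd9 are shorter than such windows. A match is a description only. The Nedd9 stretch with a match inside an intron also overlaps an exon of another annotated transcript. The stretch at the downstream Nedd9 start held 16 CpG dinucleotides in 208 bases, the stretch at the upstream start 3 in 126.

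Among the Cas-family adaptors, Nedd9 had the highest TPM in the Pax5+/+ and Pax5+/- libraries. Its TPM was 225 and 185 in Pax5+/+, 186 and 189 in Pax5+/-, 45.4 and 44.9 in Pax5R31Q/-, and 18.7 and 19.3 in Pax5-/- libraries. The Pax5+/+ and Pax5+/- ranges overlapped, both Pax5R31Q/- libraries lay below them, and both Pax5-/- libraries lay below those of Pax5R31Q/-. The mean was 205 ± 28.0 TPM (SD, n = 2) in Pax5+/+, 45.1 ± 0.373 in Pax5R31Q/- (22.0% of the Pax5+/+ mean) and 19.0 ± 0.481 in Pax5-/- cells (9.25%). On the log2(TPM + 1) scale the difference from Pax5+/+, on which the gene was chosen, was -2.15 (SE 0.12) in Pax5R31Q/- and -3.36 (SE 0.12) in Pax5-/- cells. Exon bases of Nedd9 are shared with the annotated gene Gm32401 on the other strand, and the use of strand in counting is not given in the sources used here.

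The other comparisons share libraries with those that chose the gene and are a description too. The log2 difference of Nedd9 was -2.03 (SE 0.12) between Pax5R31Q/- and Pax5+/- cells, -1.21 (SE 0.12) between Pax5-/- and Pax5R31Q/- cells, and -0.12 (95% interval -0.40 to 0.16) between Pax5+/- and Pax5+/+ cells.

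Bcar1, the broadly expressed Cas protein of other tissues, was close to absent. Its reads numbered 7 and 13 in Pax5+/+, 5 and 4 in Pax5+/-, 6 and 5 in Pax5R31Q/-, and 2 and 3 in Pax5-/- libraries, which is at most 0.319 TPM. At this depth no difference is given, though the alternative fit that kept genes of low TPM included Bcar1.

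The remaining Cas relative of some abundance, Cass4, is not among the 10 genes and comes from the list of Cas-family and Cas-binding genes. It had 17.8 and 15.8 TPM in Pax5+/+, 16.4 and 14.1 in Pax5+/-, 45.4 and 30.8 in Pax5R31Q/-, and 66.6 and 68.5 in Pax5-/- libraries. Both Pax5R31Q/- libraries lay above the 4 libraries that carry a wild type allele, and both Pax5-/- libraries lay above those of Pax5R31Q/-. Cass4 was higher in Pax5R31Q/- than in Pax5+/+ cells by 1.11 on the log2 scale (SE 0.19, limma adjusted p = 0.0211), in Pax5R31Q/- than in Pax5+/- cells by 1.25 (adjusted p = 0.0456), and in Pax5-/- than in Pax5+/+ cells by 1.95 (adjusted p = 0.000263). The first of these calls was lost when any 1 of 5 libraries was left out (each of Pax5+/+, each of Pax5+/- and Pax5R31Q/- library 1), with adjusted p between 0.0432 and 0.156 over the 8 fits that leave out a library. The call against Pax5+/- was lost in each of those 8 fits, with adjusted p between 0.0806 and 0.346. Nedd9 made up 92.6% and 92.0% of the summed Cas-family TPM in Pax5+/+ libraries, 49.9% and 59.2% in Pax5R31Q/-, and 21.9% and 22.0% in Pax5-/- libraries. Cass4 held 7.31% and 7.83%, 49.95% and 40.6%, and 78.1% and 77.9%, in the same order. The family sum was 243 and 202 TPM in Pax5+/+ and 85.3 and 87.9 TPM in Pax5-/- libraries.

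**Figure D1:**
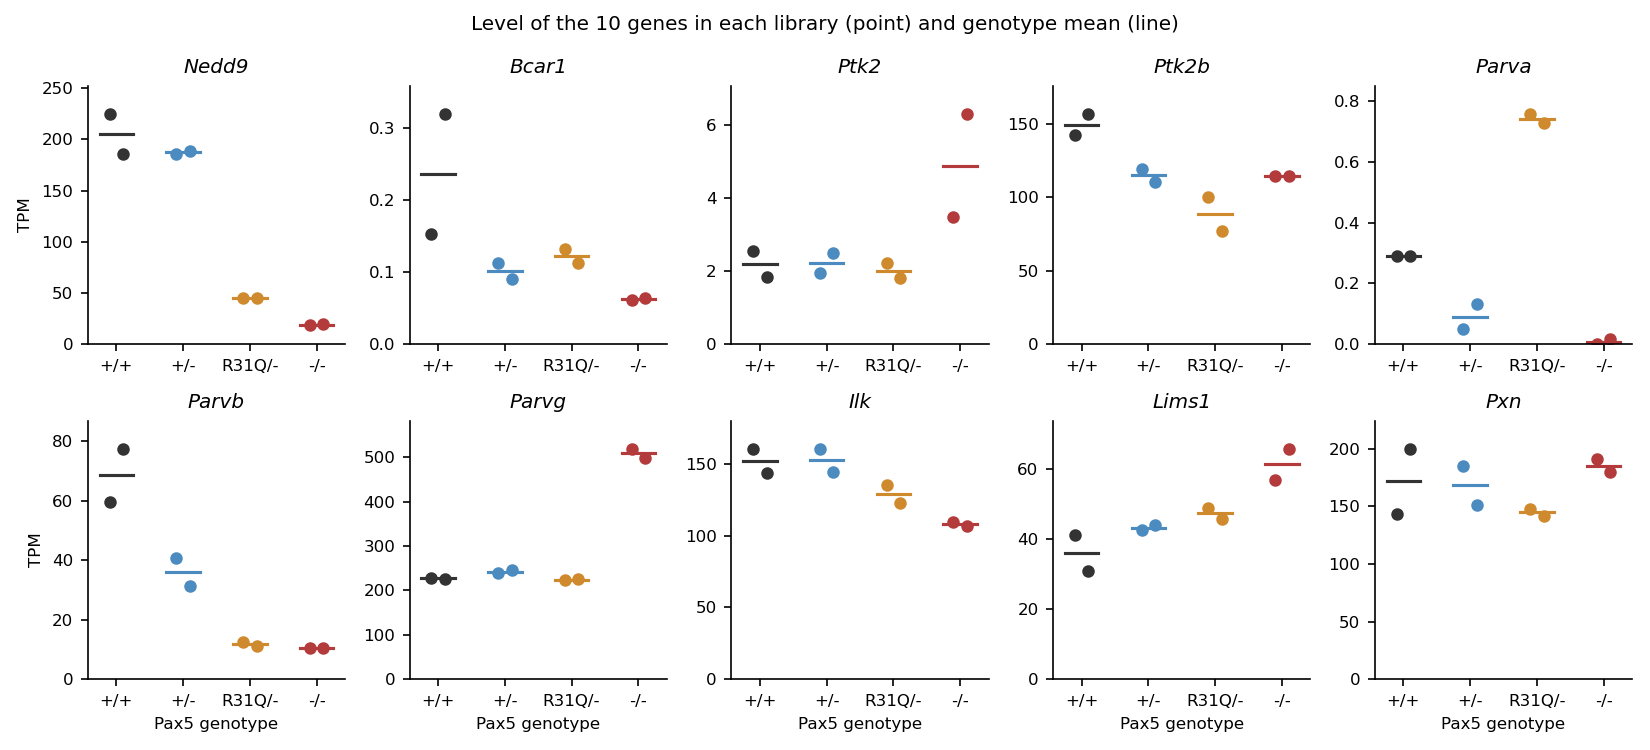
TPM of the 10 genes (vertical axes, linear and starting at 0, a scale for each gene) by Pax5 genotype, with 1 point per library (n = 2) and a line at the genotype mean. Nedd9 and Parvb lie lowest in Pax5R31Q/- and Pax5-/- libraries, Parvg stands at about the same level in 3 genotypes and higher in Pax5-/-, and Bcar1 and Parva stay under 1 TPM throughout.

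Among the kinases that phosphorylate Cas proteins, Ptk2b (Pyk2, the focal adhesion kinase relative prominent in blood cells and brain) far exceeded Ptk2 (focal adhesion kinase itself). Ptk2b had 142 and 157 TPM in Pax5+/+, 119 and 111 in Pax5+/-, 100 and 77.0 in Pax5R31Q/-, and 115 and 115 in Pax5-/- libraries. Every library of the other genotypes lay below both Pax5+/+ libraries, and those of Pax5R31Q/- were lowest. Ptk2b was lower in Pax5R31Q/- than in Pax5+/+ cells by -0.76 (SE 0.14, limma adjusted p = 0.0281). This call was lost on leaving out any of the 6 libraries other than those of Pax5-/-, with limma adjusted p from 0.0455 to 0.193 over the 8 such fits, as well as with genes of low TPM kept (0.0522) and with only these 2 genotypes in the fit (0.11). Against Pax5+/+, the difference was -0.38 in Pax5-/- (95% interval -0.71 to -0.05, limma adjusted p = 0.0741) and -0.38 in Pax5+/- cells (adjusted p = 0.704), neither past the threshold. Exon bases are shared with Gm52098.

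Ptk2 stood at 2.54 and 1.84 TPM in Pax5+/+, 1.94 and 2.504 in Pax5+/-, 2.23 and 1.80 in Pax5R31Q/-, and 3.47 and 6.30 in Pax5-/- libraries, from 109 to 425 reads. The first 3 genotypes overlapped and both Pax5-/- libraries lay above them, though these 2 differed from each other more than any pair of the others. Ptk2 was higher in Pax5-/- than in Pax5+/+ cells by 0.85 (SE 0.27, limma adjusted p = 0.0411) and than in Pax5R31Q/- cells by 0.93 (SE 0.27, adjusted p = 0.0318). The first call was lost in 7 of the 8 fits that leave out a library, all but that without Pax5-/- library 1, and the second in 5 (without either Pax5+/- library, either Pax5R31Q/- library or Pax5-/- library 2). Adjusted p over these fits ran from 0.0110 to 0.181 and from 0.0114 to 0.164. Without Pax5-/- library 2 the differences were 0.49 (limma adjusted p = 0.107) and 0.57 (limma adjusted p = 0.0733). Ptk2 made up 1.16% to 5.20% of the summed TPM of the 2 kinases.

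The parvins are actin-binding partners of integrin-linked kinase, and the gamma form is the one typical of blood cells. Parvb, which encodes beta-parvin, had 59.5 and 77.6 TPM in Pax5+/+, 40.9 and 31.4 in Pax5+/-, 12.7 and 11.3 in Pax5R31Q/-, and 10.4 and 10.6 in Pax5-/- libraries. The 4 genotypes stood in this order without overlap. The mean was 68.6 ± 12.8 TPM (SD, n = 2) in Pax5+/+, 36.1 ± 6.67 in Pax5+/-, 11.97 ± 0.971 in Pax5R31Q/- (17.5% of the Pax5+/+ mean) and 10.5 ± 0.133 in Pax5-/- cells (15.3%). The log2 difference from Pax5+/+ that chose the gene was -2.41 (SE 0.18) in Pax5R31Q/- and -2.58 (SE 0.18) in Pax5-/- cells.

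In the remaining comparisons, again with shared libraries, the log2 difference of Parvb was -1.51 (SE 0.18) between Pax5R31Q/- and Pax5+/- cells, -0.91 (95% interval -1.33 to -0.48) between Pax5+/- and Pax5+/+ cells, and -0.17 (95% interval -0.60 to 0.26) between Pax5-/- and Pax5R31Q/- cells. For Nedd9 the last of these was -1.21, and whether the 2 genes differ in this step was not tested.

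Parvg, which encodes gamma-parvin, was the most abundant of the 10 genes in every library. It had 229 and 226 TPM in Pax5+/+, 239 and 246 in Pax5+/-, 223 and 225 in Pax5R31Q/-, and 520 and 499 in Pax5-/- libraries. The pro-B libraries spanned 223 to 246 TPM and both Pax5-/- libraries stood at 499 or more. Parvg was higher in Pax5-/- than in Pax5+/+ cells by 1.16 (SE 0.09, limma adjusted p = 0.000101) and than in Pax5R31Q/- cells by 1.18 (SE 0.09, limma adjusted p = 0.000144). Both calls held in all 15 refits. In Pax5R31Q/- cells the difference from Pax5+/+ was -0.02, with a 95% interval from -0.24 to 0.20.

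Parva, which encodes alpha-parvin, was read 18 and 16 times in Pax5+/+, 3 and 8 times in Pax5+/-, 47 and 44 times in Pax5R31Q/-, and 0 and 1 times in Pax5-/- libraries. The Pax5R31Q/- libraries were the highest, at 0.758 and 0.726 TPM, and the 4 genotypes did not overlap. These levels lay under the 1 TPM needed to enter the main test. The alternative fit that kept genes of low TPM included Parva, and no difference from it is given here.

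As a result of these levels the parvin transcripts were differently composed in each genotype. Parvb made up 20.6% and 25.6% of the summed parvin TPM in Pax5+/+, 14.6% and 11.3% in Pax5+/-, 5.35% and 4.76% in Pax5R31Q/-, and 1.96% and 2.08% in Pax5-/- libraries. For each Parvb unit of TPM there were 3.84 and 2.91 units of Parvg in Pax5+/+, 5.85 and 7.82 in Pax5+/-, 17.6 and 20.0 in Pax5R31Q/-, and 49.9 and 47.1 in Pax5-/- libraries. The shift between Pax5+/+ and Pax5R31Q/- came with a lower Parvb value at a similar Parvg value. That between Pax5R31Q/- and Pax5-/- came with a higher Parvg value at a similar Parvb value.

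**Figure D2:**
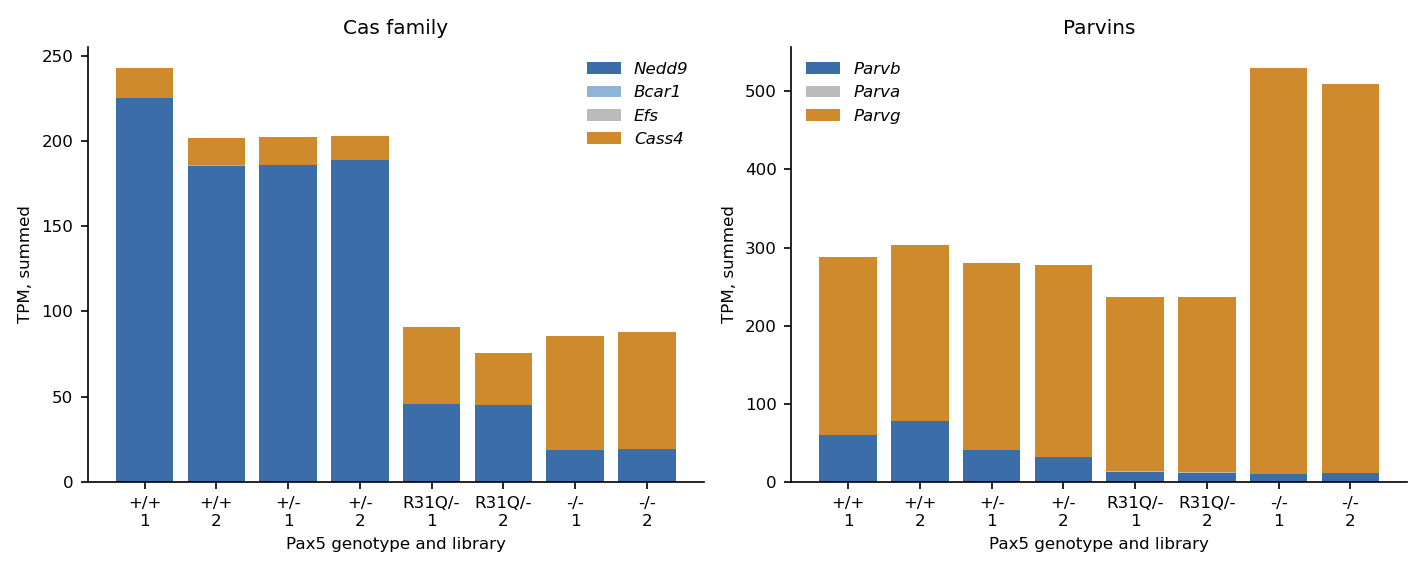
Summed TPM of the Cas family (left: Nedd9, Bcar1, Efs, Cass4) and of the parvins (right: Parva, Parvb, Parvg) in each of the 8 libraries, as stacked bars from 0. In the left panel the Nedd9 segment shrinks from 225 and 185 TPM in Pax5+/+ to 18.7 and 19.3 in Pax5-/- libraries while that of Cass4 grows, and in the right panel the Parvb segment shrinks from 59.5 and 77.6 to 10.4 and 10.6.

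Of the other parts of the parvin complex, Ilk (integrin-linked kinase) had 160 and 143 TPM in Pax5+/+, 161 and 144 in Pax5+/-, 136 and 123 in Pax5R31Q/-, and 110 and 107 in Pax5-/- libraries. It was lower in Pax5-/- than in Pax5+/+ cells by -0.48 (SE 0.12, limma adjusted p = 0.0147), a call lost without Pax5+/+ library 1 (limma adjusted p = 0.0582) and with only these 2 genotypes in the fit (0.0781; range over the 15 refits 0.0154 to 0.0781). In Pax5R31Q/- cells the difference was -0.23 (95% interval -0.50 to 0.04, limma adjusted p = 0.324). Exon bases of Ilk are shared with Rrp8 and Taf10.

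Lims1 (PINCH1) moved the other way, with 41.0 and 30.9 TPM in Pax5+/+, 42.4 and 43.9 in Pax5+/-, 48.8 and 45.7 in Pax5R31Q/-, and 56.8 and 65.7 in Pax5-/- libraries. The libraries of each genotype lay above those of the genotype before it in this list. It was higher in Pax5-/- than in Pax5+/+ cells by 0.76 (SE 0.16, limma adjusted p = 0.00772), a call lost with only these 2 genotypes in the fit (limma adjusted p = 0.0663; range over the 15 refits 0.00113 to 0.0663). The difference of 0.40 in Pax5R31Q/- cells did not pass the threshold (95% interval 0.03 to 0.76, limma adjusted p = 0.231).

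Pxn (paxillin), the scaffold, had 144 and 200 TPM in Pax5+/+, 185 and 152 in Pax5+/-, 148 and 142 in Pax5R31Q/-, and 191 and 180 in Pax5-/- libraries. Its genotypes overlapped with Pax5+/+ throughout, and no difference passed the threshold. The interval of the difference from Pax5+/+ was -0.63 to 0.17 in Pax5R31Q/- and -0.27 to 0.53 in Pax5-/- cells. Exon bases are shared with Gm13836 on the other strand.

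Counts are given over the 6 tested genes other than Nedd9 and Parvb. In Pax5R31Q/- against Pax5+/+ cells 1 of the 6 was lower (Ptk2b) and 0 higher, where limma called 2.55% of all 13436 genes lower and 1.62% higher. In Pax5-/- against Pax5+/+ cells 1 was lower (Ilk) and 3 were higher (Parvg, Lims1 and Ptk2), against 19.7% and 16.2% of all genes. Between Pax5R31Q/- and Pax5+/- cells limma called 0, with 1 at an unadjusted p under 0.05 (Ptk2b) and 0 by limma-voom, where 0.35% of all genes were lower and 0.268% higher. Between Pax5-/- and Pax5R31Q/- cells 0 were lower and 2 higher, Parvg and Ptk2, where 19.9% of all genes were lower and 14.7% higher. In that last comparison median-ratio scaling moved the median log2 difference of all genes by 0.11, from -0.13 to -0.01. Under it, Lims1 (0.49, limma adjusted p = 0.0267) and Ptk2b (0.51, limma adjusted p = 0.0277) were also higher, where the unscaled values had given 0.36 (adjusted p = 0.104, 0.0184 to 0.326 over the 15 refits) and 0.38 (adjusted p = 0.0718, 0.0214 to 0.366). The exact permutation test of 2 libraries against 2 cannot give a two-sided p below 0.333, so the tests rest on the variance limma estimates across genes.

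Between Pax5+/- and Pax5+/+ cells limma called 0 of the 6 genes, with 0.0223% of all genes lower and 0% higher. At an unadjusted p under 0.05 there was 1 of the 6, Ptk2b, with a lower value in Pax5+/-, where 3.15% of all genes had a lower and 2.91% a higher value at that p. On the recovered reads limma-voom called 0 of the 6, and over all genes 29 lower (0.216%) and 9 higher (0.067%), 0.283% in all.

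**Figure D3:**
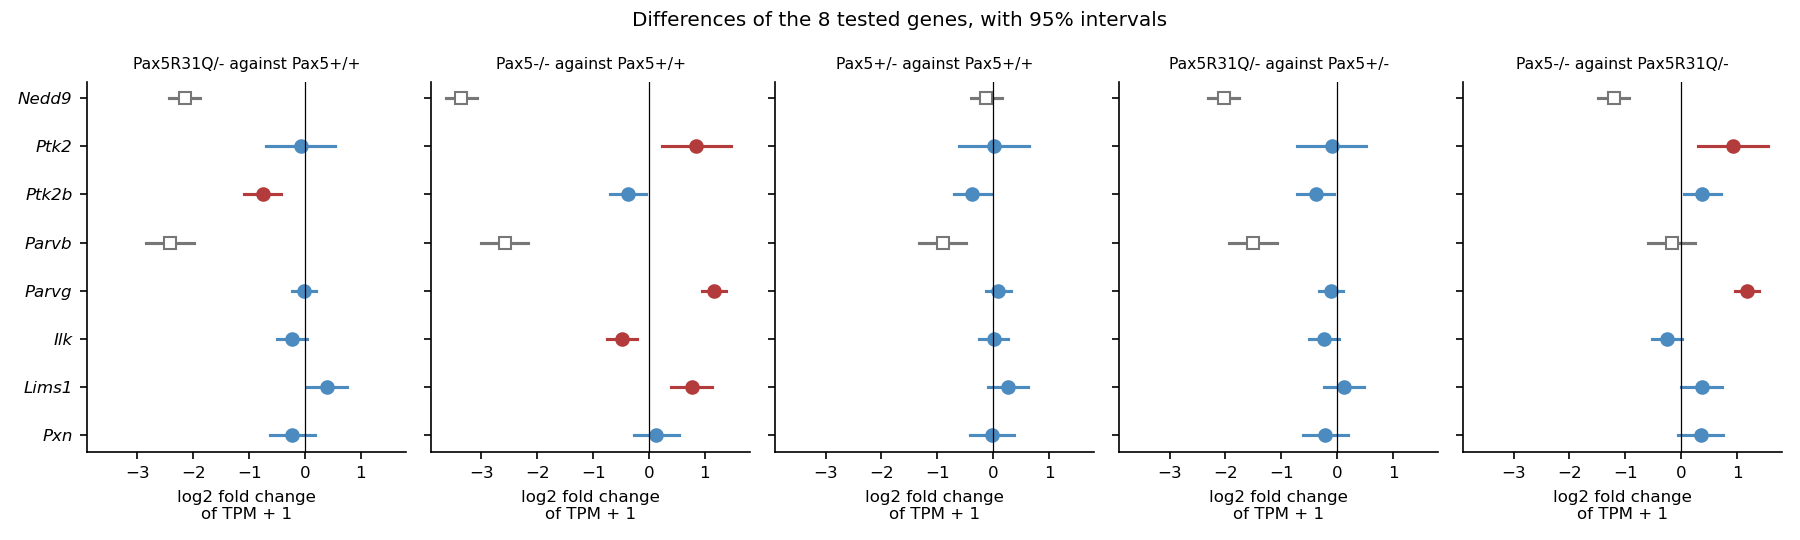
Log2 fold change of TPM + 1 with its 95% interval (horizontal axis) for the 8 tested genes in 5 comparisons between genotypes, each from 2 libraries per genotype. Red points passed a limma adjusted p of 0.05, blue points did not, and open grey squares are Nedd9 and Parvb, which were chosen with these libraries and are not tested. Nedd9 lies left of 0 in the 4 comparisons that involve a Pax5R31Q/- or Pax5-/- group, from -3.36 to -1.21, and Parvg right of 0 in the 2 that set Pax5-/- against another group, at 1.16 and 1.18.

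The wider adhesion list held 43 further genes, of which 38 were tested. In Pax5R31Q/- against Pax5+/+ cells 1 was lower, the Src-family kinase Lyn, and 1 higher, Cass4, where 2.55% of all genes were lower and 1.62% higher. A count of 1 in each direction is near that background, and the median log2 difference was -0.14 against 0.04 for all genes tested. Lyn fell by 0.66 (SE 0.12, limma adjusted p = 0.0229), from 124 and 118 TPM to 82.5 and 70.2. Its call was lost without any of the 6 libraries other than those of Pax5-/- (adjusted p from 0.0273 to 0.200 over the 8 fits). In Pax5R31Q/- against Pax5+/- cells 0 were lower and Cass4 was the 1 higher, where 0.35% of all genes were lower and 0.268% higher. Between Pax5+/- and Pax5+/+ cells limma called 0 of the 38, with 2 at an unadjusted p under 0.05 (6.06% of all genes) and 0 by voom.

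In Pax5-/- against Pax5+/+ cells 6 of the 38 were lower and 6 higher, where 19.7% of all genes were lower and 16.2% higher, with a median of 0.00 against -0.11 for all genes. The 4 with the largest change were Bcar3, Src, Cass4 and Lpxn. Bcar3, an adaptor that binds Cas proteins, lay at 8.42 and 8.17 TPM in Pax5+/+ and at 0.159 and 0.0565 in Pax5-/- libraries (log2 difference -3.07, SE 0.17, limma adjusted p = 2.36e-05). At such low values the size of the difference depends on the pseudocount of 1, and it ran to -6.27, by limma-voom, over the 15 refits. Src rose by 2.87, from 1.61 and 1.80 to 20.8 and 16.9 TPM (SE 0.23, limma adjusted p = 9.36e-05). Lpxn (leupaxin), a paxillin relative of blood cells, rose by 1.94, from 7.68 and 4.75 to 24.6 and 27.7 TPM (SE 0.23, limma adjusted p = 0.000654).

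Between Pax5-/- and Pax5R31Q/- cells 6 of the 38 were lower and 10 higher, where 19.9% of all genes were lower and 14.7% higher, with a median of 0.01 against -0.13 for all genes. The 4 largest were Bcar3 (-2.77, or -5.90 by limma-voom, limma adjusted p = 5.74e-05), Src (1.99, adjusted p = 0.000678), Tns1 (1.98, adjusted p = 0.000602) and Lpxn (1.96, adjusted p = 0.000831). Tns1 encodes tensin, which links integrin tails to actin, and it had 7.18 and 6.76 TPM in Pax5R31Q/- and 35.5 and 26.2 in Pax5-/- libraries. The count of 16 fell to between 6 and 10 on leaving out either library of Pax5+/- or Pax5R31Q/- or Pax5-/- library 1. The differences of Pax5-/- cells came together with the lower pro-B and higher T and NK marker sums and the higher Cdh5 given above, whose part in them was not tested.

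Over the 8 libraries, the 5 genes outside the immunoglobulin loci whose log2(TPM + 1) followed that of Nedd9 most closely, among 10788 with a mean above 5 TPM in a genotype, were Rapgef5 (Pearson's r = 0.998), Acss1 (0.993), Chst3 (0.987), Rfx2 (0.986) and Gfod1 (0.984). Rapgef5 had means of 16.1, 15.3, 6.57 and 4.12 TPM in Pax5+/+, Pax5+/-, Pax5R31Q/- and Pax5-/- cells. For Parvb they were Cldn4 (0.997), Litaf (0.996), Slc1a5 (0.996), Pde9a (0.995) and Dnase1l3 (0.993), and Cldn4 had means of 19.5, 8.02, 0.439 and 0.133 TPM. Nedd9 and Parvb correlated with each other at 0.921, which placed Parvb at rank 246 for Nedd9. Both lists describe 4 genotype means, with the 2 libraries of a genotype lying close together, so r has no independent points behind it.

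Pax5 peaks were counted within a gene or 10 kb of it, and a peak was called common when it overlapped a peak of the other list by at least 1 bp. Peak lists hold positions alone, from 1 library each, so no height could be compared and no test was made. By their genotype entries the 2 libraries differ in Rag2 and in Pax5 dose as well as in the mutation. These cannot be told apart. R31Q peaks were also wider over the whole lists, with a median of 559 bp against 332 bp. A wild type peak was present at 8 of the 10 genes, all but Bcar1 and Parvg, where 86.2% of the tested genes with coordinates had one. The 8 genes held 36 wild type peaks, 24 common and 12 (33.3%) without an R31Q peak, and 28 R31Q peaks, of which 4 were met by no wild type peak. Over the whole lists, 62.5% of the wild type peaks and 18.4% of the R31Q peaks were unmet. A repeated 24-letter word accounted for 13847 of the unmet wild type peaks and none of the 36 peaks held it. Without the peaks that hold it the share was 44.2%.

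Nedd9 had 9 wild type peaks, of which 3 were common and 6 were in the wild type list alone, and 4 R31Q peaks. The common ones were 629 bp, 545 bp and 768 bp wide, at 22434 bp and 64 bp inside the gene from its downstream start, and 43835 bp upstream of that start in an intron of the longer transcript. The 6 unmet peaks, all in introns, were 309, 313, 309, 332, 245 and 502 bp wide. Unmet peaks were frequent among narrow ones everywhere. Without the repeated word, 76.3% of wild type peaks from 180 to 300 bp and 66.0% from 300 to 350 bp were unmet. The share was 31.6% from 350 to 500 bp and 7.8% for those of 500 bp or more. The 502 bp peak, 60105 bp inside the gene from the upstream start (chr13:41427005-41427506), lies at the lower edge of that last class. It borders the class with 31.6% unmet, and its middle is printed above. The downstream start carried a peak in both lists, and the upstream start had an R31Q peak of 495 bp (chr13:41486994-41487488) with no wild type peak.

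Parvb had no peak within 1 kb of a start in either list. Its 4 wild type peaks lay 28389, 66957, 71160 and 81344 bp into the gene, 495, 737, 387 and 814 bp wide, and the 387 bp peak (chr15:84303010-84303396) was the 1 without an R31Q peak. The R31Q list held 4 peaks, the 3 common ones with widths of 728, 757 and 986 bp and 1 of its own at chr15:84295231-84295692. The common peak of 814 bp (chr15:84312981-84313794) overlaps an annotated Parvb exon and is the nearest peak upstream of Parvg, which had no peak within 10 kb. Neither of these neighbours, 1 chosen for its lower level in Pax5R31Q/- and Pax5-/- cells and 1 higher in Pax5-/- cells, carried a Pax5 peak at a start site (1 kb either way).

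**Figure D4:**
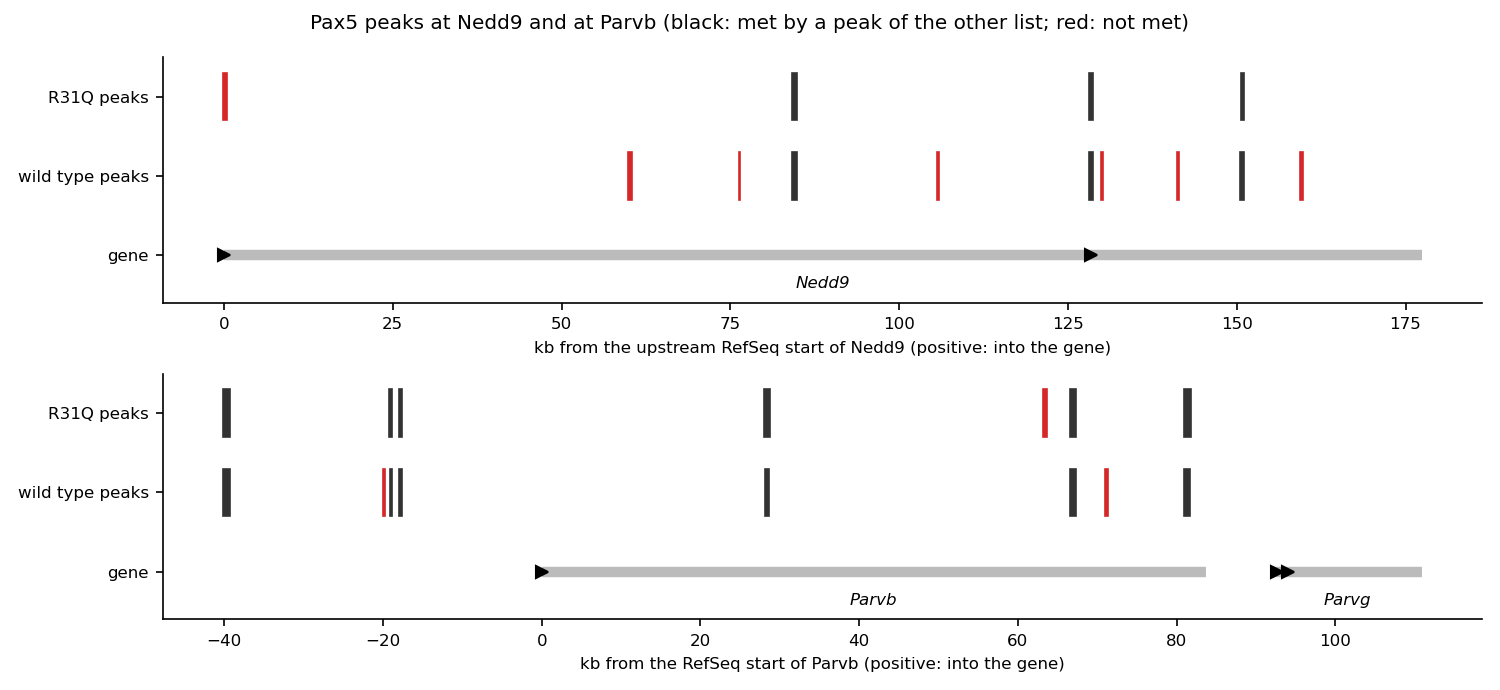
Pax5 peaks (bars, drawn to scale in width) of the wild type and R31Q lists at Nedd9 (top) and at Parvb and Parvg (bottom), by distance in kb from the start of Nedd9 or Parvb, positive into the gene. Peaks up to 50 kb away are drawn, grey bars are genes and arrowheads are RefSeq starts. Black peaks are met by a peak of the other list and red ones are not: 6 red and 3 black wild type peaks lie in Nedd9, and 1 red and 3 black in Parvb.

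Within 1 kb of a RefSeq start there were 9 wild type peaks at 6 genes (Nedd9, Ptk2, Ptk2b, Ilk, Pxn and Lims1), and all 9 were common. Such a peak was present at 67.4% of the tested genes with coordinates, and 9.46% of all wild type peaks within 1 kb of a RefSeq start were unmet. Ptk2b had 8 wild type peaks with 3 unmet, all in introns and 236 to 406 bp wide. Pxn had 7 wild type peaks, all common, and 9 R31Q peaks. Ilk had 3 wild type peaks with 1 unmet, Ptk2 had 2 and Lims1 had 1, all common, and Parva had 2 with 1 unmet. The R31Q list thus met each of the 7 peaks of Pxn and 5 of the 8 of Ptk2b. The 12 unmet peaks had a median width of 311 bp and the 24 common ones of 489 bp. GCANCCA was present in 3 of the 12 unmet and 6 of the 24 common peaks. Of all wild type peaks, 9.4% of the unmet ones (18.9% without those holding the repeated 24-letter word) and 36.1% of the common ones held it. GCGTGAC was present in 0 of the 12 and 1 of the 24, against 1.7% of all unmet (3.6% without that word) and 10% of all common peaks.

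**Figure D5:**
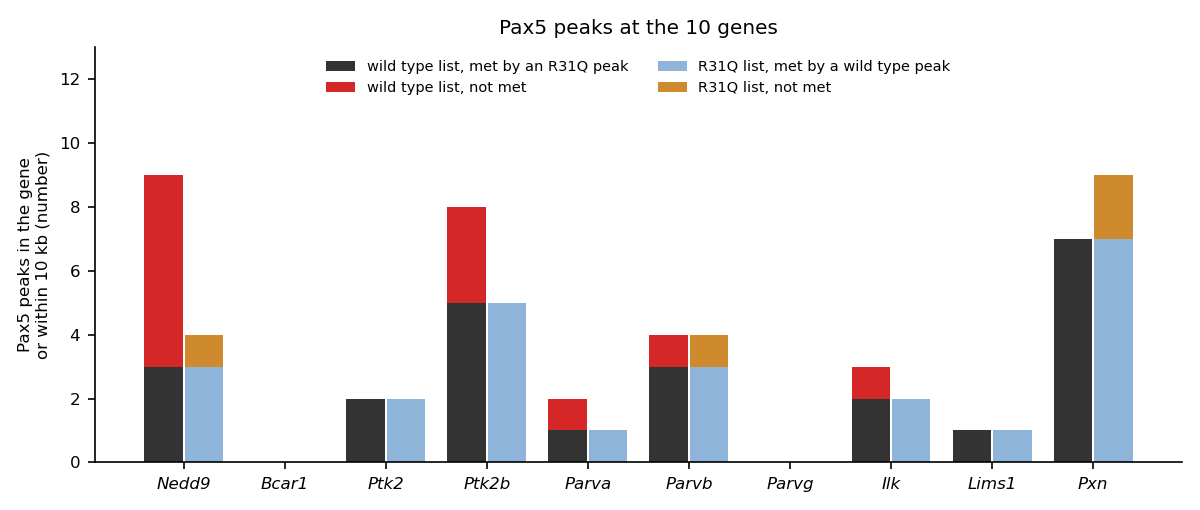
Number of Pax5 peaks in each of the 10 genes or within 10 kb (vertical axis, from 0), for the wild type list (left bar) and the R31Q list (right bar), split by whether a peak of the other list overlaps. Nedd9 has 6 of its 9 wild type peaks unmet, Ptk2b 3 of 8, Parvb 1 of 4 and Pxn 0 of 7, and Bcar1 and Parvg have none.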

How the data were processed

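The 8 RNA-seq files hold TPM values that the authors computed from uniquely mapped reads over RefSeq genes, after removal of ribosomal reads and alignment with STAR 2.4.2 to GRCm38/mm10. The deposited peak files, made by the authors with Bowtie2 2.3.5.1 and MACS on the same build, hold positions and a score of 0 throughout, 1 library per genotype.

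Genotypes came from the labels. limma 3.58.1 in R 4.3.3 was fitted to log2(TPM + 1) over all 8 libraries, with eBayes and a variance trend, for genes reaching 1 TPM in a library. Fold changes on this scale understate those of low genes. P-values were adjusted over all 13436 genes by Benjamini-Hochberg and called under 0.05. Whole reads were recovered within 0.001 reads for 18206 of 18206 genes (100.0%) above 0 in at least 2 libraries, and used for limma-voom. The script was tested on simulated data. Replicate numbers follow accession order and pair nothing.

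The members and gene lists were chosen with earlier results of these data known. Genes named outside the members are the 4 called adhesion genes with the largest change in a comparison and the 5 genes most like Nedd9 or Parvb, with the genes of the marker lists. RefSeq gene names matched 24361 of 25579 symbols. Alternatives covered the pseudocount (0.1), the filter, the genotypes in the fit, scaling, the variance trend, voom, a fold minimum, leaving out each library, and the overlap, window and width of peaks. The values of some genes are not reported here.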

Additional observations from a re-analysis of the deposited data

How the results depend on the processing

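Under the alternatives, 61 refitted differences of named genes lost a call and 7 gained one, while 0 changed direction as calls. The losses include some of Nedd9 and Parvb, which were chosen with these libraries. With only the 2 genotypes compared in the fit, Parvg kept its call in Pax5-/- against Pax5+/+. Ilk, Lims1 and Ptk2 lost theirs there (limma adjusted p = 0.0781, 0.0663 and 0.144). The adhesion genes called numbered 0 rather than 2 in Pax5R31Q/- against Pax5+/+ and 0 rather than 1 in Pax5R31Q/- against Pax5+/-. They numbered 8 rather than 16 in Pax5-/- against Pax5R31Q/-. This fit has fewer samples, and no count of members is given because Nedd9 and Parvb were chosen with these libraries. Asking also for more than a 3-fold change and a mean above 5 TPM left no member other than Nedd9 and Parvb in any comparison. It left 5 adhesion genes in Pax5-/- against Pax5+/+ and 4 in Pax5-/- against Pax5R31Q/-. It left 0 in Pax5R31Q/- against Pax5+/- and 0 in Pax5R31Q/- against Pax5+/+. Median-ratio scaling, quantile normalization and limma-voom each called Lims1 and Ptk2b besides Parvg and Ptk2 in Pax5-/- against Pax5R31Q/-. Cass4, the 1 adhesion gene called in Pax5R31Q/- against Pax5+/-, was lost with a pseudocount of 0.1, without the filter and without the variance trend (0 called in each), and the cause was not tested. Leaving out a library gave 0 to 2 adhesion genes in Pax5R31Q/- against Pax5+/+ and 0 in Pax5R31Q/- against Pax5+/-. It gave 6 to 18 adhesion genes in Pax5-/- against Pax5R31Q/-. The count of members in Pax5R31Q/- against Pax5+/- is not given for these fits, because it would rest on Nedd9 and Parvb alone. A lone library left in a genotype was assumed to vary like the others. Within 50 kb, 20 wild type peaks at the members and 2 at Parvb were unmet, rather than 12 and 1. No paired analysis was possible because the labels carry no replicate numbers.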
